A study of Mus musculus with 16 samples.

Results

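Among the non-coding RNAs measured in mouse prefrontal cortex, 4 circular RNA (circRNA) rows with consecutive names, mmu_circ_0000742, mmu_circ_0000743, mmu_circ_0000744 and mmu_circ_0000745, are described here. They are 4 of 18488 listed features and of 14540 circRNA rows, and they hold 3 distinct sets of values, because mmu_circ_0000743 and mmu_circ_0000744 were identical in every library. The rows were chosen by their normalized counts in these libraries, in which all PS19 values lay above all wild-type (WT) values, so the difference between genotypes that chose them is given as a description, without a test. What was tested is which other features followed them from mouse to mouse within a genotype. The choice was made on the difference between genotypes, but it also favours rows with a small spread within genotype.

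Small RNA libraries came from 8 PS19 and 8 WT mice. PS19 mice (labelled PS19+/-, heterozygous) express a mutant human tau protein from the mouse prion promoter, which is active in neurons throughout the brain and in other cells, and are a model of tauopathy, the accumulation of aggregated tau. The WT mice were littermates without the transgene, and per the methods of the study both groups held males and females in equal number and were in the tenth month of life. The labels name no treatment and do not say which libraries came from which sex, so sex was not analysed here. Libraries are named by genotype and by the replicate number in the sample titles.

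A circRNA forms by back-splicing, in which the end of a downstream exon is joined to the start of an upstream exon of the same transcript. The closed circle has no free ends and resists exonucleases, and circRNAs are known to be plentiful in brain, where many come from genes of synaptic proteins. A small RNA library captures short RNAs through their free ends, so a count under a circRNA row is a count of short reads placed inside the annotated interval of that circle. Whether the counting asked for a read across the back-splice junction is not given in the sources used here, and without one a fragment of the circle and a fragment of the linear transcript of the same gene cannot be told apart. The host gene, the position and the sequence of the 4 rows were not analysed here.

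The libraries held between 13.2 M and 23.1 M recovered reads. PS19 replicate 7 stood apart, with 22.6 M reads against at most 18.0 M in the other PS19 libraries and a size factor, the number by which the counts of a library were divided, of 1.68. The main genotype ratios and several correlations are also given without it. Each library also carries a code whose first letter was G in all 8 PS19 libraries, in WT replicates 2 and 4 and in no other WT library, and what the letter stands for is not given in the sources used here. The cell type markers fixed for this tissue showed neuronal miRNAs in every library, with a summed normalized count of the 6 neuronal miRNAs between 302404 and 1042983 in PS19 and between 346910 and 968084 in WT. In bulk tissue, fewer cells of a type and less RNA per cell cannot be told apart.

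The rows were covered by few reads. mmu_circ_0000742 had 16, 25, 21, 26, 38, 23, 95 and 36 reads in PS19 replicates 1 to 8, and 12, 21, 15, 17, 19, 14, 20 and 12 reads in WT replicates 1 to 8. This came to 410 reads over 16 libraries, or 0.000763% of the reads under circRNA rows. By its mean normalized count it nevertheless ranked 958 among the circRNA rows, above 93.4% of them, since most circRNA rows were close to 0. For mmu_circ_0000743 the PS19 reads ran from 15 to 88 and the WT reads from 11 to 20, and for mmu_circ_0000745 from 14 to 70 and from 11 to 18.

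With so few reads the counting error is wide. The 95 reads of mmu_circ_0000742 in PS19 replicate 7 had an exact 95% Poisson interval of 76.9 to 116 reads, and the 38 reads of PS19 replicate 5, the next highest, one of 26.9 to 52.2. In WT replicate 8 the 12 reads had an interval of 6.20 to 21.0. These intervals cover counting error only, since reads without molecular identifiers are not independent molecules. These reads are not scaled for depth, which was greatest among PS19 libraries in replicate 7.

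The counts of the 3 distinct rows moved almost in step. mmu_circ_0000742 had at least as many reads as mmu_circ_0000743 in 16 of 16 libraries, and at least as many as mmu_circ_0000745 in 16 of 16. It equalled mmu_circ_0000743 in 2 libraries, and mmu_circ_0000743 equalled mmu_circ_0000745 in 6. The order of the last pair turned in 1 library, PS19 replicate 4, with 25 reads under mmu_circ_0000743 and 26 under mmu_circ_0000745. Over all PS19 libraries 280 reads were counted under mmu_circ_0000742, 260 under mmu_circ_0000743 and 229 under mmu_circ_0000745. In WT these sums were 130, 117 and 114. With counts this close the 4 rows were not treated as 4 separate measurements, and whether they count the same reads was not analysed here.

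**Figure D1:**
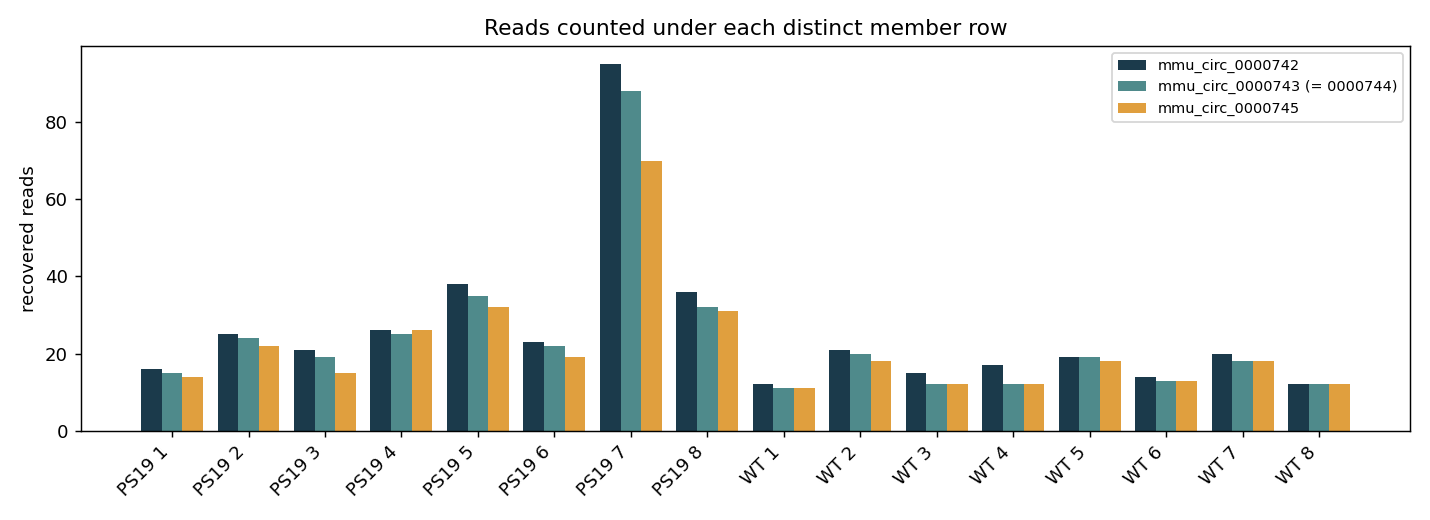
Recovered reads (vertical axis) under each of the 3 distinct rows in the 8 PS19 and 8 WT libraries (horizontal axis, named by replicate). The 3 bars of a library differ little, mmu_circ_0000742 is never the lower of the 3, and PS19 replicate 7 stands above all other libraries with 95, 88 and 70 reads.

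The differences between the counts of the rows were compared next. In PS19 the count of mmu_circ_0000742 exceeded that of mmu_circ_0000745 by 51 of 280 (18.2%), against 16 of 130 (12.3%) in WT. PS19 replicate 7 gave 25 of those 51, and without it the PS19 share was 26 of 185 (14.1%). Relative to mmu_circ_0000743 the excess was 20 reads (7.14%) in PS19 and 13 reads (10.0%) in WT. For mmu_circ_0000745 the share lay between 0.00% and 28.6% in PS19 libraries and between 0.00% and 29.4% in WT libraries, so the genotypes overlapped widely.

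In normalized counts, the deposited scale, mmu_circ_0000742 had a lowest value of 21.8, a median of 27.4 and a highest value of 56.5 in PS19, and 11.2, 14.8 and 19.97 in WT. The PS19 mean was 31.3 ± 11.2 (SD, n = 8) and the WT mean 15.2 ± 2.77 (SD, n = 8), a 2.06-fold ratio. On the log2(value + 1) scale used for all fits the difference was 0.95. The groups did not overlap, which is how the row was picked.

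mmu_circ_0000743 and mmu_circ_0000744 ran from 20.9 over a median of 26.3 to 52.4 in PS19, and from 10.3 over 12.9 to 19.0 in WT. Their means were 29.1 ± 10.3 (SD, n = 8) and 13.7 ± 2.95 (SD, n = 8), with a log2 difference of 1.004, the widest of the rows. mmu_circ_0000745 had a lowest value of 18.0, a median of 23.2 and a highest of 41.6 in PS19, and 10.3, 12.9 and 17.1 in WT. The means were 25.9 ± 7.63 (SD, n = 8) and 13.3 ± 2.34 (SD, n = 8), and the log2 difference was 0.88. Without PS19 replicate 7 the log2 differences were 0.83, 0.88 and 0.78 in the same order, and the ratios of the means were 1.82, 1.89 and 1.78.

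**Figure D2:**
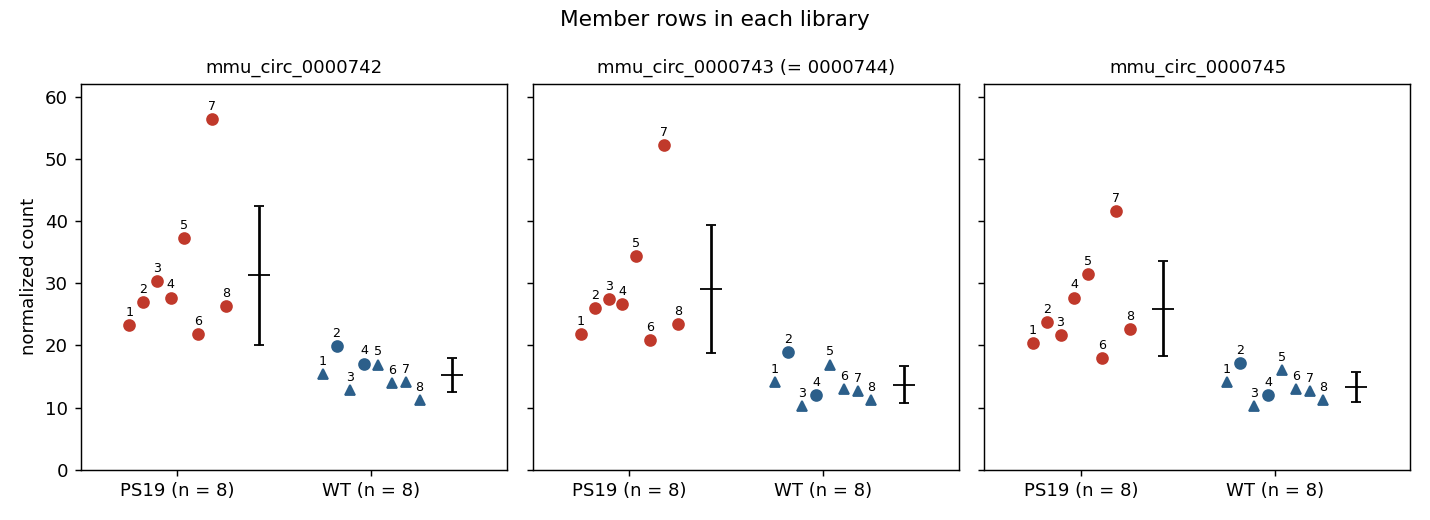
Normalized count (vertical axis) of mmu_circ_0000742, mmu_circ_0000743 (identical to mmu_circ_0000744) and mmu_circ_0000745 in each library, numbered by replicate, with the mean and SD (n = 8) beside each genotype. Circles mark libraries whose code starts with G and triangles the others, and the lowest PS19 value, replicate 6, sits just above the highest WT value, replicate 2, in every panel.

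The gap between the genotypes was narrow. In all 4 rows the lowest PS19 library was replicate 6 and the highest WT library was replicate 2, with 21.8 against 19.97 normalized counts for mmu_circ_0000742, 20.9 against 19.0 for mmu_circ_0000743 and 18.0 against 17.1 for mmu_circ_0000745. At the depth of PS19 replicate 6 these gaps were worth 1.95, 1.96 and 0.96 reads. The 23 reads of mmu_circ_0000742 in PS19 replicate 6 had a Poisson interval of 14.6 to 34.5 and the 21 reads in WT replicate 2 one of 13.0 to 32.1, so the order of these 2 libraries lay within counting error.

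Of the 6024 features with a mean of at least 5, 6 were separated with PS19 higher, which is 0.0996% of those tested, and 0 with PS19 lower. These 6 were the 4 rows, Gm24525 and Gm23928, the last 2 being predicted genes of small nuclear RNA (snRNA), the class of the spliceosome. With limma, 112 features (1.86%) were higher in PS19 at p under 0.05 before adjustment. Since the separation chose the rows, nothing is read from their place in these counts. The nearest features on the other side of the limit were Rnu12, the U12 snRNA of the minor spliceosome, with a lowest PS19 value of 336.7 and a highest WT value of 381.3, and mmu_circ_0013619 with 4.34 and 5.13.

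Full separation was a property of the deposited scale. In reads per M of the library total (RPM), mmu_circ_0000742 was 1.08 in PS19 replicate 1 and 1.11 in WT replicate 4, so that 1 WT library passed the lowest PS19 library. mmu_circ_0000743 was passed by 1 WT library, replicate 5, and mmu_circ_0000745 by 2, replicates 5 and 6. On this scale 0 of the 6024 features were separated, and the same was true of the recovered reads without scaling, a comparison added after the data were seen. Scaled to the summed circRNA signal, 4 PS19 libraries lay above the highest WT library for mmu_circ_0000742. The direction of the means did not change. The PS19 mean of mmu_circ_0000742 was 1.96 ± 1.01 (SD, n = 8) RPM and its WT mean 0.900 ± 0.189 (SD, n = 8) RPM, a 2.18-fold ratio that was 1.82-fold without PS19 replicate 7.

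**Figure D3:**
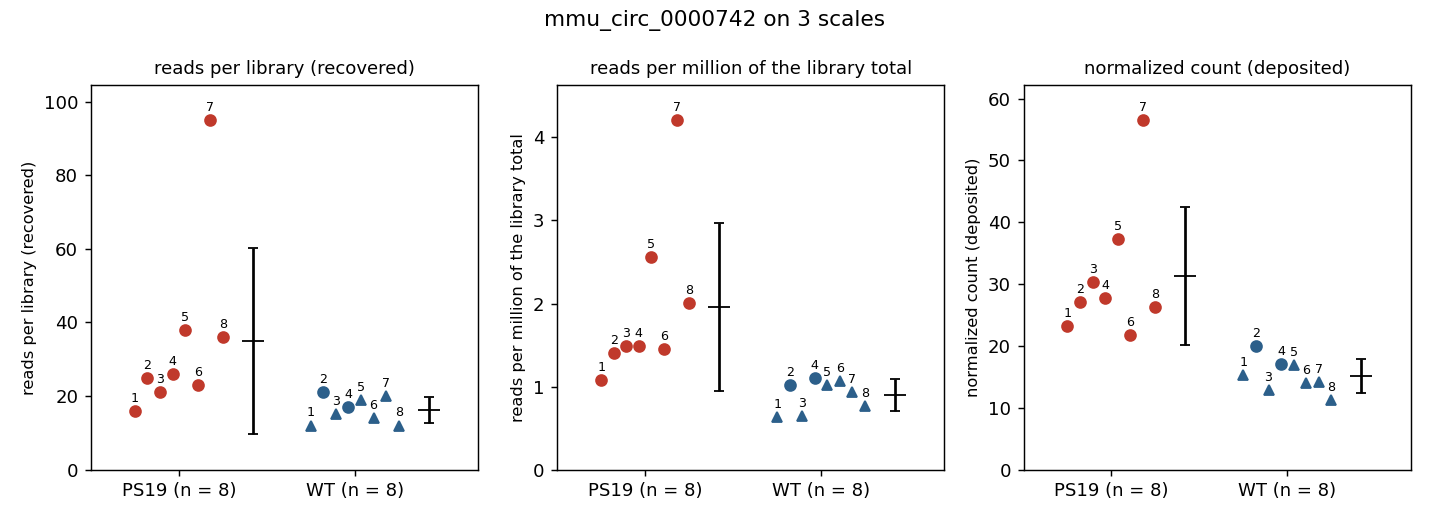
mmu_circ_0000742 as recovered reads, reads per M of the library total (RPM) and deposited normalized counts (vertical axes) in each library, numbered by replicate, with mean and SD (n = 8). Circles mark code letter G and triangles other letters. PS19 and WT overlap in the first 2 panels, where WT replicate 4 (1.11 RPM) lies above PS19 replicate 1 (1.08 RPM), and are apart only in the last panel.

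The code letter could be compared only within WT. Against the 2 WT libraries with the letter G, the mean of mmu_circ_0000742 in PS19 was 1.69-fold higher, and against the other 6 WT libraries it was 2.22-fold higher. These 2 WT libraries had 17.1 and 19.97 normalized counts of mmu_circ_0000742, above the range of the other 6, which was 11.2 to 16.9. For mmu_circ_0000743 the ratios were 1.87 and 2.23, and for mmu_circ_0000745 they were 1.78 and 2.01. In these rows 1 of the 2 libraries, WT replicate 4 with 12.1 normalized counts, lay within the range of the other 6. No PS19 library had another letter, so for the remaining WT libraries letter and genotype cannot be told apart.

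The spread of the rows within a genotype was set beside counting noise. For counts that vary only by sampling, the variance of the reads around their expected number divided by that number is about 1. This index was 0.544 for mmu_circ_0000742, 0.698 for mmu_circ_0000743 and 0.450 for mmu_circ_0000745 in WT. In PS19 it was 5.41, 4.93 and 2.86, and without replicate 7 it came to 0.918, 0.791 and 0.854. The median over all tested features was 3.49 in WT and 3.09 in PS19, although the index grows with abundance and these medians were not matched for it. Choosing rows whose genotypes do not overlap favours a small spread within genotype, so these values are a description.

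circRNA rows with neighbouring names were examined to see whether the difference extended beyond the 4 rows. Of the 20 names within 10 numbers on either side, 18 were listed, 15 of these had a mean under 5 and were not tested, and 0 of the 18 were separated. mmu_circ_0000747, the neighbour of similar abundance, had a PS19 mean of 24.5 ± 6.62 (SD, n = 8) normalized counts and a WT mean of 25.4 ± 9.93 (SD, n = 8). Its correlation with the rows within genotype was 0.09. The 3 tested neighbours, mmu_circ_0000736, mmu_circ_0000747 and mmu_circ_0000750, had correlations between 0.03 and 0.40. Neighbouring names need not mean neighbouring positions.

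**Figure D4:**
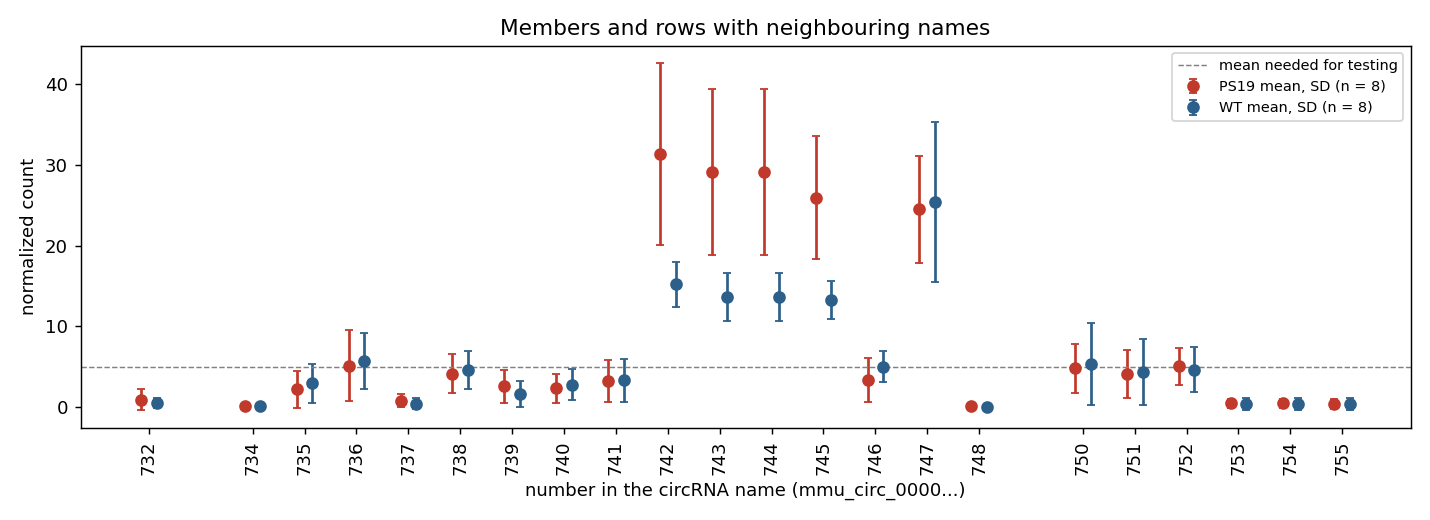
Mean normalized count with SD (n = 8 per genotype, vertical axis) of the 4 rows and of the listed circRNA rows with neighbouring names, ordered by the number in the name (horizontal axis). The dashed line marks the mean of 5 needed for testing, and outside the 4 rows the PS19 and WT means lie within their SDs, as for mmu_circ_0000747 with 24.5 and 25.4.

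To ask which features followed the rows, their level in a library was taken as the mean of log2(normalized count + 1) over the 3 distinct rows, and the mean of each genotype was subtracted. The slope of every other feature on this level was fitted with genotype in the model, over 16 libraries and 6020 features. No feature passed an adjusted p-value of 0.05 in limma (0 features, lowest adjusted p = 0.99998). Before adjustment, 155 features (2.57%) had p under 0.05, of which 77 rose with the rows and 78 fell. This depended on the scale: with counts scaled to the library total, 1 feature passed the adjusted threshold, and 1482 rose and 92 fell at the unadjusted one. edgeR on the recovered reads gave 0 features at the adjusted threshold, with a lowest adjusted p of 0.771, and 97 rising and 62 falling at the unadjusted one. The correlations were centred on 0, with a median of 0.00063, and the lower and upper limits that left out 1 in 20 features on each side were -0.40 and 0.39.

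Even the rows did not get small p-values from this fit. The rows themselves, fitted against their own mean, gave unadjusted limma p-values between 0.000916 and 0.00342. The smallest among the named features was that of mmu_circ_0016064, 0.000867, with an adjusted p of 0.99998 in the same limma fit. A feature with the p-values of the rows would thus not have been called, and the count of 0 does not show that nothing follows them. Among the rows, the correlation within genotype was 0.95 between mmu_circ_0000742 and mmu_circ_0000743, 0.90 between mmu_circ_0000742 and mmu_circ_0000745, and 0.96 between mmu_circ_0000743 and mmu_circ_0000745.

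By class, 107 of 4249 circRNAs (2.52%) followed the rows at the unadjusted threshold, 53 rising and 54 falling. Of 748 miRNAs, 15 did (2.01%), 3 rising and 12 falling. Among snoRNAs, which guide chemical modification of other RNAs, there were 8 of 499 (1.603%), and among snRNAs 4 of 118 (3.39%), all falling. tRNAs had 20 of 405 (4.94%), with 18 rising. The classes were not tested against each other.

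The 10 features with the highest correlation within genotype are named next, picked for that value, and 7 of them were circRNAs. None of their slopes passed the adjustment, and the permutation p-values given for them are not adjusted for this choice. Each correlation was recomputed without PS19 replicate 7 and WT replicate 2, the 2 libraries farthest from the median of the centred level, a choice made after the data were seen, and without PS19 replicates 5 and 7, the 2 farthest before centring. The highest was mmu_circ_0002222, with a lowest, median and highest normalized count of 4.37, 7.41 and 14.3 in PS19 and 3.42, 4.51 and 9.90 in WT. It was high where the rows were high, in PS19 replicates 5 and 7 and in WT replicate 2, but also in WT replicate 7, where they were not. Its correlation was 0.72 (permutation p = 0.00209) with a Spearman rho of 0.63 (permutation p = 0.0156), and it was 0.57 without PS19 replicate 7 and WT replicate 2 and 0.53 without PS19 replicates 5 and 7. Its adjusted limma p was 0.99998. mmu_circ_0002221, with a correlation of 0.70, had the same read numbers as mmu_circ_0002222 in all but PS19 replicate 7 and WT replicate 7, so the pair was not counted as 2 separate observations. Without PS19 replicate 7 alone the correlations of the pair were 0.66 and 0.68.

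Next came mmu_circ_0016064, whose values were uneven. It reached 101.3 and 96.4 normalized counts in PS19 replicates 5 and 7 and 54.4 and 37.0 in WT replicates 5 and 6, against medians of 7.66 in PS19 and 8.95 in WT. In WT replicate 6 the rows were not high, with a centred level of -0.05. The correlation of 0.68 (permutation p = 0.00971, rho 0.56 with permutation p = 0.0378) was 0.66 without PS19 replicate 7 and WT replicate 2, 0.52 without PS19 replicate 7 alone and 0.24 without PS19 replicates 5 and 7, its 2 highest libraries. For mmu_circ_0011879, with a correlation of 0.65, the values in this order were 0.51, 0.47 and 0.20. mmu_circ_0006094, mmu_circ_0007408 and mmu_circ_0000760, with correlations of 0.67, 0.67 and 0.66, had 0.54, 0.69 and 0.52 without PS19 replicate 7 and WT replicate 2 and 0.51, 0.55 and 0.53 without PS19 replicates 5 and 7, and all were rows of low count, between 1 and 34 reads in a library.

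Both miRNAs among the 10, and the 1 miRNA among the 5 features with the lowest correlation, are shown with their mature sequences from RefSeq, 5′ to 3′, the seed at bases 2 to 8 in capitals. The seed is the stretch that pairs with target messenger RNAs, and the 3 seeds are different, so that no seed family is shared. In the GRCm38.p6 build the mature miRNAs lie at chr16:84714143-84714165 on the plus strand, chr9:110281353-110281371 on the plus strand and chr8:95753188-95753209 on the minus strand, in this order.
mmu-miR-155-5p: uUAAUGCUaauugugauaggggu
mmu-miR-6236: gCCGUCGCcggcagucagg
mmu-miR-7073-5p: uGGGGGAAuugaaagacuauga

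mmu-miR-155-5p, a miRNA of activated macrophages, microglia and lymphocytes, had a lowest value of 45.5, a median of 65.7 and a highest of 196.9 normalized counts in PS19, and 24.3, 42.7 and 73.0 in WT. The highest value was in PS19 replicate 7, as for the rows, and 3 PS19 libraries lay above all WT libraries. Within genotype the correlation was 0.66 (permutation p = 0.0142, rho 0.59 with permutation p = 0.0210). It was 0.81 among PS19 and 0.30 among WT libraries, and an interaction term for this difference did not pass the threshold (limma adjusted p = 0.9995). Without PS19 replicate 7 it was 0.36, without PS19 replicate 5 it was 0.69, and without PS19 replicate 7 and WT replicate 2 it was 0.35, so the relation rested on PS19 replicate 7.

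The correlation of mmu-miR-6236 rested less on PS19 replicate 7. Its normalized counts ran from 4.39 over a median of 11.2 to 24.6 in PS19, and from 0 over 2.34 to 6.66 in WT. These are few reads, 5 to 33 in PS19 and 0 to 7 in WT, where replicate 3 had none. Given counting error, a count of 0 reads does not show that the miRNA was absent. The correlation within genotype was 0.66 (permutation p = 0.00386, rho 0.72 with permutation p = 0.00273), and it was 0.71 without PS19 replicate 7, 0.63 without PS19 replicate 7 and WT replicate 2 and 0.75 without PS19 replicates 5 and 7. It was 0.59 among PS19 and 0.83 among WT libraries, and the interaction term did not pass (limma adjusted p = 0.9995). The slope over both genotypes did not pass either (limma adjusted p = 0.99998). On the log2(value + 1) scale mmu-miR-6236 was 1.94 higher in PS19 (SE 0.45), which did not pass the adjustment over all 6024 features, the 4 rows included (limma adjusted p = 0.409), and 5 PS19 libraries lay above all WT libraries.

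**Figure D5:**
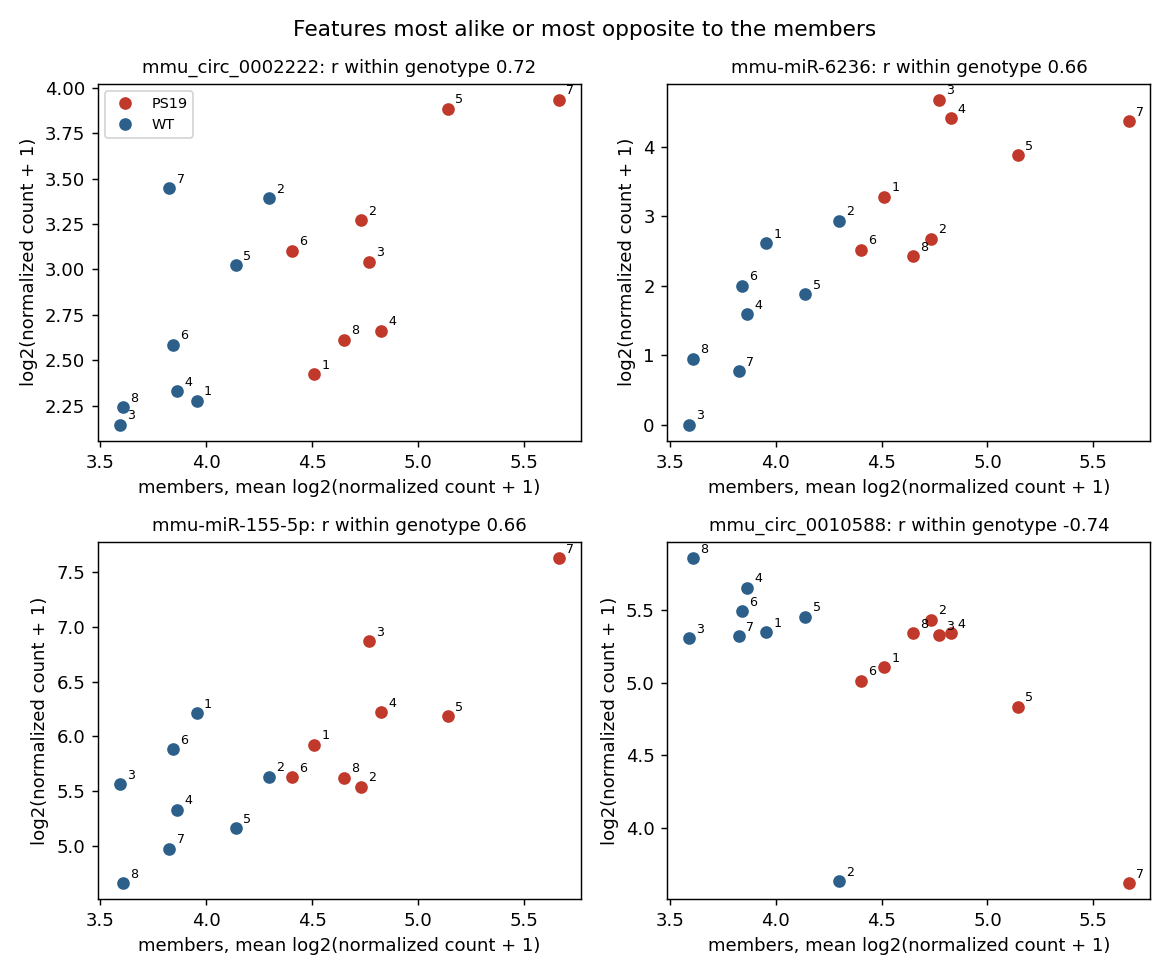
Level of 4 features (vertical axes, log2 of normalized count plus 1) against the mean level of the 3 distinct circRNA rows on the same scale (horizontal axes), 1 point per library, numbered by replicate, PS19 in red and WT in blue. mmu_circ_0002222, mmu-miR-6236 and mmu-miR-155-5p rise with the rows within genotype (r = 0.72, 0.66 and 0.66), mmu_circ_0010588 falls (r = -0.74), and PS19 replicate 7 lies at the right of every panel.

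The tenth feature was an aspartate tRNA with the anticodon GTC, Mus_musculus_tRNA-Asp-GTC-1-11. In small RNA libraries such rows mostly hold tRNA fragments and not whole tRNAs. Its normalized counts ran from 1629 over a median of 1917 to 3246 in PS19, and from 1005 over 1542 to 2166 in WT, with the highest value again in PS19 replicate 7. The correlation within genotype was 0.65 (permutation p = 0.00889, rho 0.59 with permutation p = 0.0160) and 0.42 without PS19 replicate 7, 0.38 without PS19 replicate 7 and WT replicate 2 and 0.36 without PS19 replicates 5 and 7. Of the 16 tested rows for this tRNA, 13 followed the rows at the unadjusted threshold, but these are the 13 copies of Asp-GTC-1, whose correlation with each other was at least 0.997. They make up most of the 18 tRNA rows that rose.

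The 5 features most opposite to the rows were mmu_circ_0010588 (r = -0.74), mmu-miR-7073-5p (-0.72), Gm22868 (-0.71), mmu_circ_0013602 (-0.71) and mmu_circ_0013452 (-0.71). mmu_circ_0010588 had normalized counts of 11.3 to 42.2 in PS19 and 11.4 to 56.9 in WT, and its 2 low values were in PS19 replicate 7 and WT replicate 2, the libraries where the rows were highest in each genotype. Without these 2 libraries its correlation was -0.23, without PS19 replicate 7 alone -0.54, and its rank correlation over all libraries was -0.37 (permutation p = 0.175). mmu-miR-7073-5p had 1 read in PS19 replicate 7 and 3 to 14 in the other libraries, and its correlation was -0.39 without PS19 replicate 7. Gm22868, a predicted snRNA gene at chr11:26337540-26337703 on the minus strand (GRCm38, GENCODE M21), was 2 reads there and 4 to 16 elsewhere, and its correlation was also -0.39 without it. For mmu_circ_0013602 the correlation was -0.42 without PS19 replicate 7 and WT replicate 2 and -0.69 without PS19 replicates 5 and 7, and for mmu_circ_0013452 it was -0.25 and -0.48.

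Over all 16 libraries pooled, a difference between genotypes in the direction of the rows adds to the correlation of a feature. The highest pooled values were those of mmu-miR-6236 (0.86), mmu-miR-155-5p (0.76), Gm24525 (0.75), mmu_circ_0009377 (0.74) and Mus_musculus_tRNA-Asp-GTC-1-11 (0.73). These are a description, since the rows were chosen for the genotype difference. Gm24525, at chr5:7177706-7177856 on the minus strand, had normalized counts of 179.7 to 1027 in PS19 and 107.8 to 177.0 in WT. Within genotype its correlation with the rows was 0.40 (permutation p = 0.226, rho 0.53 with permutation p = 0.0534), and 0.20 without PS19 replicate 7. Its highest library was PS19 replicate 3, where mmu_circ_0000742 had 30.4 normalized counts. Gm23928, at chr7:91667149-91667293 on the minus strand, lay between 41.1 and 62.2 in PS19 and between 19.8 and 38.4 in WT. Its correlation within genotype was -0.24 (permutation p = 0.323), and -0.33 without PS19 replicate 7. The 2 snRNAs that shared the separation of the genotypes were thus not shown to share the variation of the rows within them.

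Whether the slopes differed between PS19 and WT was fitted for every feature. No feature passed an adjusted p-value of 0.05 in limma (0 features, lowest adjusted p = 0.999), and 130 (2.16%) had an unadjusted p-value under 0.05.

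The level of the rows was also set against 9 measures of the libraries, within genotype. None passed an adjusted p-value of 0.05 over the 9 (0 measures), and 2 had an unadjusted permutation p under 0.05. The correlation with the circRNA share of the signal was -0.57 (permutation p = 0.0234, adjusted p = 0.118, rho -0.39 with permutation p = 0.141), and -0.51 without PS19 replicate 7 and WT replicate 7, the 2 libraries farthest from the median share. That with the tRNA share was 0.52 (permutation p = 0.0262, adjusted p = 0.118, rho 0.43 with permutation p = 0.1004), and 0.61 without WT replicates 7 and 8. With the recovered reads it was 0.40 (permutation p = 0.119, adjusted p = 0.339), 0.29 without PS19 replicate 7 and WT replicate 3, the 2 farthest in reads, and 0.039 without PS19 replicate 7 alone. With the number of features above 0 it was 0.36 (permutation p = 0.227, adjusted p = 0.357), and 0.029 without PS19 replicate 7. With the size factor it was 0.44 (permutation p = 0.151, adjusted p = 0.339), and -0.05 without PS19 replicate 7 and WT replicate 7. The part of depth and composition in the level of the rows was otherwise not tested.

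Markers of the cell types that a cortex sample could hold were read in the same way. Of 32 marker miRNAs, all listed, 26 were tested, and 2 followed the rows at the unadjusted threshold, which 2.57% of all tested features passed. The median correlation was 0.05, against 0.00063 over all tested features. The 2 were mmu-miR-155-5p, named above, whose correlation rested on PS19 replicate 7, and mmu-miR-128-3p. The latter, a neuronal miRNA that controls excitability, had a correlation of -0.52. Of the 5 microglial and myeloid markers 2 were tested, and mmu-miR-146a-5p, which restrains inflammatory signalling, had a correlation of 0.40. mmu-miR-223-3p, the defining miRNA of neutrophils and monocytes, had 0.949 to 4.34 normalized counts in PS19 and 1.001 to 8.97 in WT, and mmu-miR-142a-3p, present in all blood-derived cells, was at most 11.8. The summed level of the 5 myeloid markers lay between 571.2 and 3013 in PS19 and between 432.8 and 1539 in WT. Medians of the correlations were -0.14 for neuronal, 0.11 for oligodendrocyte, -0.05 for vessel, -0.14 for red blood cell, 0.23 for choroid plexus, 0.15 for olfactory epithelium and 0.02 for muscle and liver markers. The part of these cells in the difference between genotypes was not tested.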

How the data were processed

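Single-end small RNA libraries (NEBNext, about the same amount of frozen prefrontal cortex per mouse) of 8 PS19 and 8 WT mice were analysed, grouped by the sample labels. Reads were aligned by the authors, per the labels and the study's methods, with STAR 2.5.3a within COMPSRA to mm10 and normalized counts with DESeq2 1.42.1. The deposited values are a normalized signal, that is read counts divided by 1 size factor per library. The other columns held the authors' log2 fold changes, standard errors, test statistics and p-values and were not used, and 0 columns of library values were left out. Dividing by the smallest value above 0 of a library gave whole reads for 100% of the values (tolerance 0.001). This evidence is weaker for WT replicates 4 and 6, where the smallest value was close to 1. Over 56 pairs of libraries within a genotype the chi-square per degree of freedom ranged from 43.5 to 569.9, so each library was counted as 1 sample. P-values measure the spread between these mice.

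The 4 rows, the marker lists and the comparisons were chosen with earlier results of these data known. Features with a mean of at least 5 were transformed as log2(value + 1) and fitted with limma 3.58.1 (lmFit, eBayes with trend, R 4.3.3), two-sided, with Benjamini-Hochberg adjustment over all 6024 tested features, the 4 rows included, for genotype, and over the 6020 others for slopes. The slope on the level of the rows was fitted with genotype as a term. Correlations within genotype used values centred by genotype and 100000 permutations of the libraries within genotype (two-sided, Python 3.11.15, scipy 1.17.1). Features named are the 10 highest and 5 lowest correlations within genotype, the 5 highest pooled, rows within 10 name numbers, the markers and separated features. Classes came from feature names or GENCODE M21 biotypes, and 3 of 3 named miRNAs matched a RefSeq mature sequence. edgeR 4.0.16 and DESeq2 1.42.0 on recovered reads, other pseudocounts (0.5 and 5), filters, scalings, terms and leaving out each library were alternatives. Correlations without libraries farthest on the centred level were added after the data were seen. The fit was tested on simulated data.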

Additional observations from a re-analysis of the deposited data

Results flagged for a closer look

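Of 60 group values examined, in which chance alone would mark about 3, 8 had a library far from the other 7 of its genotype, and 6 of these 8 were in PS19 replicate 7. A library was marked when its gap to the next value exceeded Dixon's critical value for 8 samples. In PS19 replicate 7, mmu_circ_0000742 had 56.5 normalized counts against 37.4 in the next library. mmu_circ_0000743 and mmu_circ_0000744 both had 52.4 against 34.4, and are the same values. The library total there was 22.6 M recovered reads against 18.0 M. mmu-miR-155-5p had 196.9 normalized counts against 115.7, and Mus_musculus_tRNA-Asp-GTC-1-11 had 3246 against 2173. The other flags were a low value of mmu_circ_0010588 in WT replicate 2, 11.4 normalized counts against 38.5, and a high value of mmu_circ_0009377 in WT replicate 5, 9.80 against 4.95. These features were named for their correlation with the circRNA rows, and the flags are not independent of each other.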

How the results depend on the processing

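The log2 difference of the rows between genotypes (mean of the 3 distinct rows, 0.95) ranged from 0.76 against the G-coded WT libraries alone to 1.07 with edgeR over 24 alternatives, its sign being fixed by the choice of the rows, and was between 0.83 and 1.01 (PS19 replicates 7 and 6 left out, respectively) over the 16 fits that left out a library. The number of distinct rows without overlap went from 3 to 0 when scaled to the library total, to 0 when scaled to the circRNA signal and to 0 in recovered reads without scaling, the last being added after the data were seen. Features following the rows at an adjusted p-value under 0.05 were 1 when scaled to the library total (mmu_circ_0016064, limma adjusted p = 0.00450) and 1 with no genotype term (mmu-miR-6236, limma adjusted p = 0.0240), and 0 under the other 26 alternatives. At the unadjusted threshold, the 77 rising features became 360 with no filter, 19 with a mean of at least 20, 1482 when scaled to the library total and 118 with no genotype term, and 47 (without WT replicate 8) to 124 (without PS19 replicate 6) when a library was left out, with 51 without PS19 replicate 5. The 78 falling features became 149 with no filter, 47 with a mean of at least 20, 125 with no genotype term and 47 with depth as a term, and 58 (without PS19 replicate 7) to 122 (without PS19 replicate 6) when a library was left out. With no filter more features and with a mean of at least 20 fewer features were tested. The cause of the other changes was not tested. Library measures with an adjusted p-value under 0.05 went from 0 to 7 of 9 when scaled to the library total.

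The weak correlations with library measures were not stable in sign. That with the size factor was -0.051 without the 2 farthest libraries and -0.083 to 0.54 when a library was left out, and that with features above 0 was -0.15 without the 2 farthest. That with the miRNA share became 0.028 with the replicate block. That with the snoRNA share became 0.43 when scaled to the library total, 0.16 with the replicate block, 0.11 without the 2 farthest and -0.24 to 0.076 when a library was left out. That with the snRNA share was -0.13 without the 2 farthest and -0.15 to 0.33 when a library was left out, and that with the replicate number was -0.041 by Spearman's rho and -0.24 to 0.17 when a library was left out. The slopes of 17 named features, most of them picked for their correlation, kept their sign in 466 of 466 alternative fits but moved in size. Gm23928, with a weak slope of -0.20 (SE 0.32), was not among the 17. With the replicate block that of mmu_circ_0002222 went from 1.19 to 0.38 and that of mmu_circ_0009377 from 0.99 to 0.27, without PS19 replicate 7 that of mmu-miR-7073-5p from -2.01 to -1.003, and scaled to the library total that of mmu-miR-6236 from 1.89 to 1.02 and that of mmu_circ_0010588 from -1.43 to -0.33.

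The sample titles number the libraries but do not say whether the numbers pair them, and the main fits did not pair them. The correlation of the deviations of same-numbered libraries was 0.04 to 0.46, above 0 for all 8 numbers and over 0.1 for 6 of 8. Of the 8 PS19 libraries, 2 correlated best with the WT library of their own number. Whether same-numbered libraries share more than differently numbered ones was not tested. With the replicate block, 0 features followed the rows at an adjusted p-value under 0.05 in limma, with 114 rising and 76 falling at the unadjusted one, and the difference of the rows was again 0.95. The rows had 11 to 95 reads in a library.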

Other observations

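Among tRNA families other than aspartate, 3 of the 4 tested rows of threonine tRNA with anticodon AGT followed the circRNA rows at an unadjusted limma p-value under 0.05, with correlations within genotype of 0.45 to 0.47 and no adjusted call. Of 14 glutamate tRNA rows with anticodon CTC, 2 did, with correlations up to 0.55, and over all tested features 2.57% did. The 9 initiator methionine tRNA rows had a median correlation of -0.56, and 0 of them passed. Glycine tRNAs with anticodon GCC, which give abundant fragments in small RNA libraries, had correlations of 0.27 to 0.37 over 15 rows, 0 of them past that threshold. The 58 cysteine tRNA rows with anticodon GCA had a median correlation of 0.16. For these families the correlations are not given without PS19 replicate 7, and how alike the rows of a family are is given only for aspartate. Below the mean of 5 needed for testing, 1 more circRNA row, mmu_circ_0008141 with a mean of 3.51 normalized counts, had all PS19 values above all WT values, and it too overlapped when scaled to the library total. It was chosen after its values were seen.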
